A study of Mus musculus with 48 samples.

Results

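MHC class II presentation in the mouse colon was followed through 7 genes chosen by name, H2-Aa, H2-Ab1, H2-Eb1, H2-DMa, H2-DMb1, Cd74 and Ciita. They are 7 of the 55401 genes of the count table, matched by the symbol that GENCODE vM21 gives to each Ensembl identifier. The selection by name used no expression threshold, and all 7 passed the filter on low counts that left 14475 genes for testing.

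RNA of the colon was sequenced from 48 male C57BL/6J mice aged 18 to 20 weeks, 1 library per mouse. Control mice (Bmal1fl/fl) carried floxed Bmal1 alleles without Cre. Bmal1IEC-/- mice carried the same floxed alleles together with a Cre driven by the Villin promoter, which is active in intestinal epithelial cells, so that immune, muscle and stromal cells of the colon kept an intact clock gene. Mice of both genotypes were housed singly with a running wheel and were killed on the second day of constant darkness, 4 of each genotype at circadian time (CT) 1, 5, 9, 13, 17 and 21. The comparison asks whether loss of the epithelial clock alters the class II pathway of the colon, or its course over the circadian day. The main tests used 46 mice, 24 control and 22 Bmal1IEC-/-, the set that matches the size factors of the study's own rhythm analysis. The remaining pair, Bmal1IEC-/- mice at CT1 (replicates SV384 and SV385), is described apart and enters the tests with all 48 mice.

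Libraries held between 3145000 and 4785840 counts. The table lists Bmal1 under the symbol Arntl. Its counts cover the whole gene in all cells of the colon, and over all times it was not called by genotype (log2 fold change, Bmal1IEC-/- minus control, 0.32, SE 0.17, edgeR adjusted p = 0.241). It ranged from 15.9 to 286 normalised counts in control and from 85.8 to 182 in Bmal1IEC-/- mice. Its mean swung in control mice from 26.4 ± 8.81 normalised counts at CT9 to 260 ± 18.02 at CT1 (SD, n = 4 each), whereas the Bmal1IEC-/- means lay between 114 at CT9 and 177 at CT1. Nr1d1, which encodes the clock repressor REV-ERB alpha, decreased by 1.48 on the log2 scale in Bmal1IEC-/- mice (SE 0.12, edgeR adjusted p = 2.39e-13), with a lower mean at 6 of 6 times.

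MHC class II molecules are surface heterodimers that display peptides from ingested proteins to CD4+ T cells. H2-Aa and H2-Ab1 encode the alpha and beta chains of the I-A molecule, and H2-Eb1 encodes the beta chain of I-E, which C57BL/6 mice do not display because their H2-Ea gene is inactive. Cd74 encodes the invariant chain that guides new class II molecules to the endosome, where cathepsin S trims it to a short peptide. H2-DMa and H2-DMb1 encode the DM heterodimer that exchanges this peptide for antigen. Ciita encodes the coactivator that switches the whole set on, and it is induced by interferon gamma. Dendritic cells, macrophages and B cells express class II constantly, and intestinal epithelial cells can express it under interferon gamma.

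The 5 H2 genes of the set lie in the MHC on chromosome 17 (mm10): H2-DMa at 34119541 to 34139101, H2-DMb1 at 34153072 to 34160230, H2-Ab1 at 34257689 to 34269419, H2-Aa at 34282744 to 34287823 and H2-Eb1 at 34305867 to 34316674. H2-Aa is on the minus strand and the others on the plus strand. Ciita lies on chromosome 16 at 10480059 to 10528418 on the plus strand, and Cd74 lies on another chromosome. Of the 3448 exon bases of H2-DMa, 360 (10.4%) overlap exons of Brd2 on the opposite strand, and 3.45% of the Ciita exon bases overlap Dexi on the opposite strand. The strand setting of the counting is not given in the sources used here, so reads in these stretches may belong to either gene. H2-DMb1 has a near-identical neighbour, H2-DMb2, and its counts are uncertain to the extent that reads could not be split between them.

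Class II promoters are known for a shared arrangement of an X box, bound by the RFX complex, and a Y box, bound by NF-Y. The 250 bases upstream of the start of H2-Aa (chr17:34287824-34288073, minus strand) and H2-Eb1 (chr17:34305617-34305866, plus strand) are shown because these 2 genes moved together across mice in the data below. The sequences are from RefSeq on GRCm38.p6, written 5′ to 3′ and ending at the base before the start. Capitals mark GNAACT, taken as part of the X box, and ATTGG, the core of the Y box.
H2-Aa: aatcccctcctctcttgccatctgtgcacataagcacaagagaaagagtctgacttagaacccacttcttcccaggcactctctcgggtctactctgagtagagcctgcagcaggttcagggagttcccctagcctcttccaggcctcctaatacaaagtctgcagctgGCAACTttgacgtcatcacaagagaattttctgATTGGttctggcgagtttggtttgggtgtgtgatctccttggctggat
H2-Eb1: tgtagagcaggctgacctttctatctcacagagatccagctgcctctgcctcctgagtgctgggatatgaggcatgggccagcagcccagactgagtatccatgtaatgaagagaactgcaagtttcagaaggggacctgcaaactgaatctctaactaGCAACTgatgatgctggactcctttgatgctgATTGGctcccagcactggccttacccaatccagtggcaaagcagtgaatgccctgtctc

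The spacer between the capitals is 27 bases in H2-Aa and 26 bases in H2-Eb1, and the Y box ends 43 and 54 bases before the start. Promoter windows were found for 4 of the 7 members, and 3 of them, H2-Aa, H2-Eb1 and H2-DMb1, held GNAACT followed after 20 to 35 bases by ATTGG on either strand. The pair occurred in 194 of 32851 windows of the same length (0.591%), while ATTGG alone occurred in 33.8%. Both H2-DMa windows lacked the pair. Of 4 other class II genes with a window, 1 held it (H2-Eb2), and H2-DMb2, H2-Oa and H2-Ob did not. None of the members with a window held the E-box CACGTG, the hexamer bound by BMAL1 and CLOCK, which occurred in 6.02% of all windows. The motif was chosen after these sequences were seen, and a match or its lack says nothing of binding in the colon.

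Transcript levels of the members spanned a wide range when expressed per length, as CPM (counts scaled to a common library total) per kilobase (kb) of exon. Cd74 was the highest at 116 ± 21.6 CPM per kb in control and 116 ± 22.5 in Bmal1IEC-/- mice (SD, n = 24 and n = 22). H2-Eb1 followed at 39.2 ± 7.29 in control and 39.3 ± 8.32 in Bmal1IEC-/- mice. H2-Aa reached 31.2 ± 5.30 and 30.5 ± 5.46, and H2-Ab1 27.4 ± 4.85 and 26.8 ± 6.07. The peptide exchange genes were far lower, with H2-DMb1 at 5.17 ± 1.12 and 5.26 ± 1.22 CPM per kb and H2-DMa at 3.26 ± 0.605 and 3.33 ± 0.851. Ciita was the lowest at 0.732 ± 0.158 in control and 0.732 ± 0.216 in Bmal1IEC-/- mice.

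The order held in nearly every mouse, since each member exceeded the next one in 44 to 46 of 46 mice. It depended on the length used for the middle ranks: with the longest transcript in place of all exons, H2-Ab1 moved to the second rank at 57.4 CPM per kb, and H2-DMb1 exceeded H2-DMa in only 28 of 46 mice, so that these neighbours could not be ordered.

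**Figure D1:**
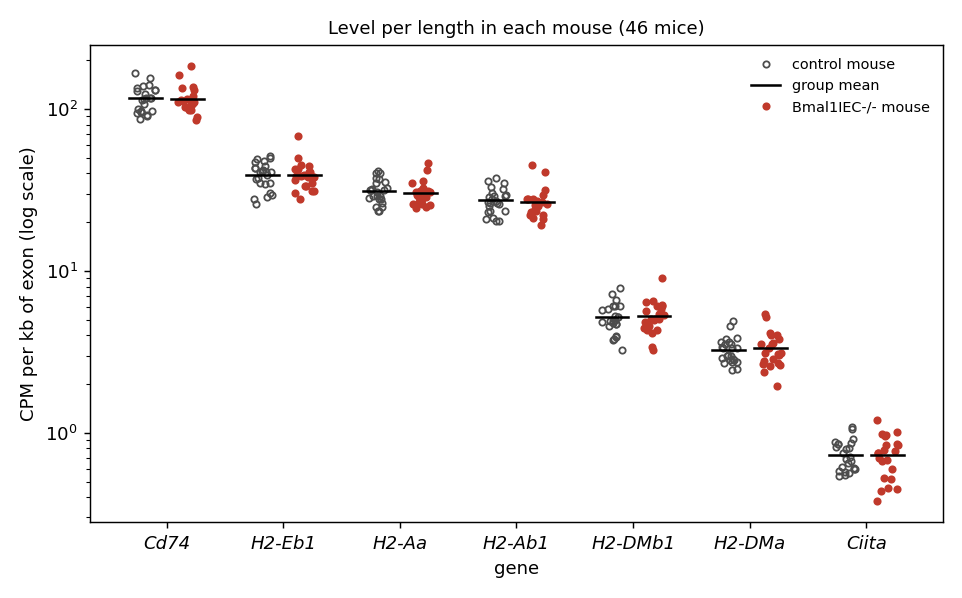
Level of each member in each of 46 mice in CPM per kb of exon on a log axis, with open circles for control mice, red circles for Bmal1IEC-/- mice and bars for the mean of each genotype. Cd74 lies near 116 and Ciita near 0.732 CPM per kb, and the 2 genotypes overlap for every member.

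Over all times, no class II member differed between the genotypes beyond the spread between mice. None of the 7 members passed the genotype test (edgeR quasi-likelihood test with circadian time as covariate, adjusted p under 0.05), compared with 11.1% of the 14475 genes tested (5.44% higher and 5.64% lower in Bmal1IEC-/- mice), and none had an unadjusted p under 0.05. The median log2 fold change of the members was -0.03, beside 0.00 over all genes tested. DESeq2 and limma voom called none of the 7 either.

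For the I-A chains, H2-Aa ranged in control mice from 340 to 607 normalised counts with a median of 454, and in Bmal1IEC-/- mice from 362 to 677 with a median of 435. H2-Ab1 ranged from 202 to 369 with a median of 266 in control mice and from 191 to 448 with a median of 255 in Bmal1IEC-/- mice. The 2 genotypes overlapped over nearly the whole range for both chains. The log2 fold changes, Bmal1IEC-/- minus control, were -0.05 for H2-Aa (SE 0.06, 95% confidence interval -0.18 to 0.07, edgeR adjusted p = 0.654) and -0.06 for H2-Ab1 (SE 0.07, interval -0.20 to 0.09, edgeR adjusted p = 0.687). The I-E beta chain gene was not called either. H2-Eb1 ranged from 193 to 381 normalised counts with a median of 306 in control mice and from 209 to 507 with a median of 289 in Bmal1IEC-/- mice, with a log2 fold change of -0.02 (SE 0.07, interval -0.16 to 0.12, edgeR adjusted p = 0.905).

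The invariant chain gene Cd74 ranged from 567 to 1066 normalised counts with a median of 753 in control mice and from 559 to 1182 with a median of 718 in Bmal1IEC-/- mice. Its log2 fold change was -0.03 (SE 0.06, interval -0.16 to 0.09, edgeR adjusted p = 0.804). The DM chains were measured with few counts, 26 to 82 per mouse for H2-DMa and 20 to 52 for H2-DMb1. H2-DMa had a median of 42.5 normalised counts in control and 41.5 in Bmal1IEC-/- mice, with a log2 fold change of 0.02 (SE 0.08, interval -0.15 to 0.18, edgeR adjusted p = 0.940). H2-DMb1 had medians of 32.3 and 32.9 and a log2 fold change of 0.01 (SE 0.09, interval -0.17 to 0.18, edgeR adjusted p = 0.976).

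Ciita, the coactivator, was counted 15 to 44 times per mouse. It ranged from 19.9 to 40.3 normalised counts with a median of 25.7 in control mice and from 14.05 to 44.4 with a median of 27.6 in Bmal1IEC-/- mice. Its log2 fold change was -0.03 (SE 0.10, interval -0.24 to 0.17, edgeR adjusted p = 0.882), the widest interval of the set. In linear terms, the intervals of all 7 members lay between 0.849 and 1.14 times the control level, so that changes of 1.5-fold in either direction were outside every interval. In bulk tissue, fewer cells of a type and less RNA per cell cannot be told apart.

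**Figure D2:**
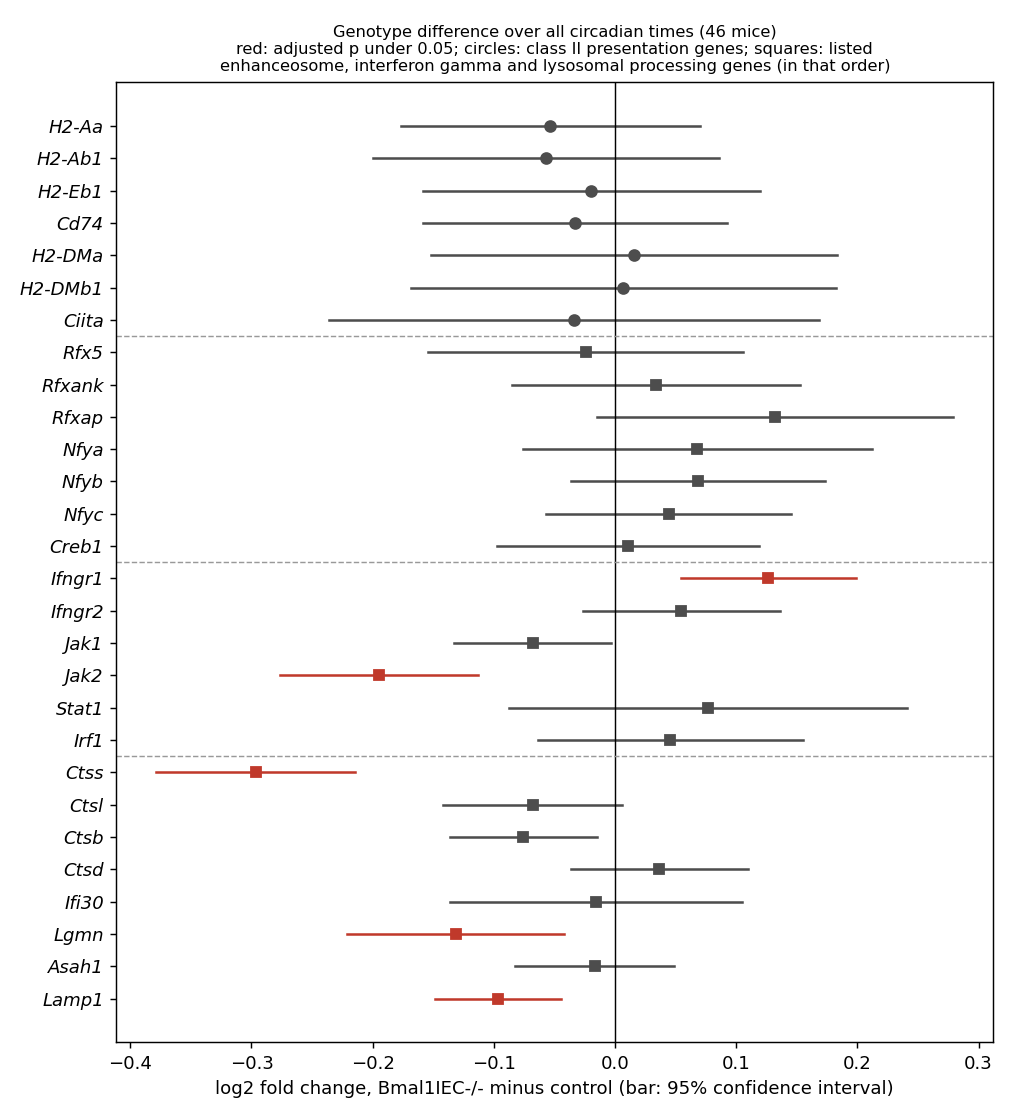
Log2 fold change, Bmal1IEC-/- minus control, with its 95% confidence interval for the 7 members (circles) and for the tested genes of the enhanceosome, interferon gamma and lysosomal processing lists (squares), with genes at an adjusted p under 0.05 in red. All 7 member intervals include 0, and the interval of Ctss runs from -0.38 to -0.21.

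No member was called at a single circadian time either. None of the 7 members passed the genotype test at any of the 6 times, where the share of all genes called was 1.51% at CT1, 0.456% at CT5, 1.82% at CT9, 4.72% at CT13, 1.11% at CT17 and 0.394% at CT21, and no member had an unadjusted p under 0.05 at any time. The fitted differences ran from -0.26 for Ciita at CT13 to 0.29 for H2-DMb1 at CT1, and the intervals at single times reached from -0.75 to 0.83 on the log2 scale. These outermost limits belong to Ciita at CT13 and H2-DMb1 at CT1, and other intervals were narrower, such as -0.34 to 0.28 for Cd74 at CT9. With 2 to 4 mice per group, a difference inside a member's own interval at a single time remained possible. The interaction of genotype with the subjective day (CT1, CT5 and CT9) or night (CT13, CT17 and CT21) was called for none of the 7 members and for 0.0691% of all genes. Tested apart, none of 7 was called in the day (2.76% of all genes) and none in the night (4.3%).

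Some genes acting beside the class II members did pass. Of 8 lysosomal processing genes, 3 fell in Bmal1IEC-/- mice and none rose, beside 5.64% lower and 5.44% higher over all genes. Cathepsin S (Ctss), the protease that trims the invariant chain, ranged from 814 to 1290 normalised counts with a median of 1082 in control mice and from 718 to 1040 with a median of 864 in Bmal1IEC-/- mice. All 22 Bmal1IEC-/- mice lay below the control median, and the Bmal1IEC-/- mean was lower at 6 of 6 times. Ctss decreased by 0.30 on the log2 scale (SE 0.04, edgeR adjusted p = 4.05e-07). The lysosomal membrane protein gene Lamp1 decreased by 0.10 (SE 0.03, edgeR adjusted p = 0.00903), and Lgmn, which encodes the protease legumain and is named because it completes the count, decreased by 0.13 (SE 0.04, edgeR adjusted p = 0.0456). The remaining 5 genes of the list did not pass. With all 48 mice Ctss was still called (edgeR adjusted p = 7.15e-05), but Lamp1 (edgeR adjusted p = 0.121) and Lgmn (edgeR adjusted p = 0.132) were not, and Lgmn was also lost in 22 of 46 fits that left out 1 mouse. With the macrophage and dendritic cell lists as covariates the edgeR adjusted p of Lgmn was 0.290.

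In the interferon gamma signalling list, 1 of 6 tested genes rose and 1 fell, beside 5.44% higher and 5.64% lower over all genes. Ifngr1, a receptor chain, rose from 821 ± 71.1 to 897 ± 81.6 normalised counts (log2 fold change 0.13, SE 0.04, edgeR adjusted p = 0.0146), and was not called with the epithelial list as covariate (edgeR adjusted p = 0.0605). Jak2, the kinase bound to the receptor, fell from 409 ± 47.6 to 357 ± 34.6 (decreased by 0.19 on the log2 scale, SE 0.04, edgeR adjusted p = 0.000592). Ifng itself was at or near 0, with a count in 8 of 46 mice, and was not tested. Of 11 interferon gamma target genes, 1 fell: Ido1, which encodes a tryptophan-degrading enzyme, went from 29.7 ± 14.9 to 14.7 ± 10.97 normalised counts (decreased by 1.02 on the log2 scale, SE 0.22, edgeR adjusted p = 0.000892). The remaining 10 target genes did not pass, and 1 of 11 lay near the 11.1% called over all genes.

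None of the 7 genes of the enhanceosome, the RFX, NF-Y and CREB factors that bind class II promoters, passed the test, and their median log2 fold change was 0.04. The most counted of them, Creb1, was at 247 ± 34.5 in control and 248 ± 39.0 normalised counts in Bmal1IEC-/- mice. Of the other class II genes, H2-Ob and H2-DMb2 were tested and not called, at 12.5 ± 4.32 and 9.47 ± 3.41 normalised counts in control mice and 11.6 ± 5.32 and 8.84 ± 4.26 in Bmal1IEC-/- mice, while H2-Oa and H2-Eb2 were too low to test. None of the 3 class II turnover genes and none of 3 tested costimulatory ligand genes passed, with March8, a ubiquitin ligase, at 623 ± 34.7 and 597 ± 48.3 and Icosl at 97.0 ± 13.9 and 90.1 ± 12.9. In the class I pathway, 1 of 15 genes fell. H2-K1, a classical class I heavy chain, went from 3302 ± 349 to 2996 ± 253 normalised counts (decreased by 0.15 on the log2 scale, SE 0.03, edgeR adjusted p = 0.00224). With all 48 mice it was not called (edgeR adjusted p = 0.231). These lists were chosen with earlier results of these data known, and the shares called, 3 of 8 and 1 of 15 among them, stand beside 11.1% over all genes.

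Over the circadian day, the group means of 4 members had their lowest and highest values at the same times in both genotypes. The group means of H2-Aa, H2-Ab1, H2-Eb1 and Cd74 were lowest at CT1 and highest at CT9 in control and in Bmal1IEC-/- mice. These 4 genes moved together between mice of a group (Pearson r from 0.85 to 0.90), so they are not 4 separate observations. For H2-Aa the control mice at CT1 read 369, 387, 409 and 411 normalised counts, and the control mice at CT9 read 427, 525, 600 and 607. These 2 groups did not overlap, and the ratio of their means was 1.37. Both times were picked as the lowest and highest means of the same data. Such a choice favours a gap and a ratio above 1, and this holds for the Cd74 ratios below as well. When circadian time was tested in control mice alone, Cd74 was called and H2-Aa was not. In Bmal1IEC-/- mice the 2 mice at CT1 read 375 and 379, whereas the 4 mice at CT9 split into a low pair at 362 and 363 and a high pair at 616 and 677. For Cd74 the control means were 601 ± 32.7 at CT1 and 892 ± 102 at CT9 (SD, n = 4 each), a ratio of 1.48, and the Bmal1IEC-/- means were 599 ± 57.0 (n = 2) and 872 ± 289 (n = 4), a ratio of 1.45.

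H2-DMa and H2-DMb1 differed from these times in part. H2-DMa was lowest at CT13 in both genotypes, at 38.8 ± 1.36 and 38.4 ± 3.16 normalised counts, and highest at CT21 in control mice (55.4 ± 8.75) but at CT9 in Bmal1IEC-/- mice (53.7 ± 19.9). H2-DMb1 was highest at CT9 in both, at 41.6 ± 7.97 and 39.7 ± 14.9, but lowest at CT1 in control (26.9 ± 4.90) and at CT13 in Bmal1IEC-/- mice (28.0 ± 0.898). Ciita was lowest at CT1 in both genotypes, at 21.2 ± 1.37 in control and 20.8 ± 5.47 in Bmal1IEC-/- mice, and its means were highest at CT13 in control (31.7 ± 4.86) and at CT9 in Bmal1IEC-/- mice (31.9 ± 4.54).

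**Figure D3:**
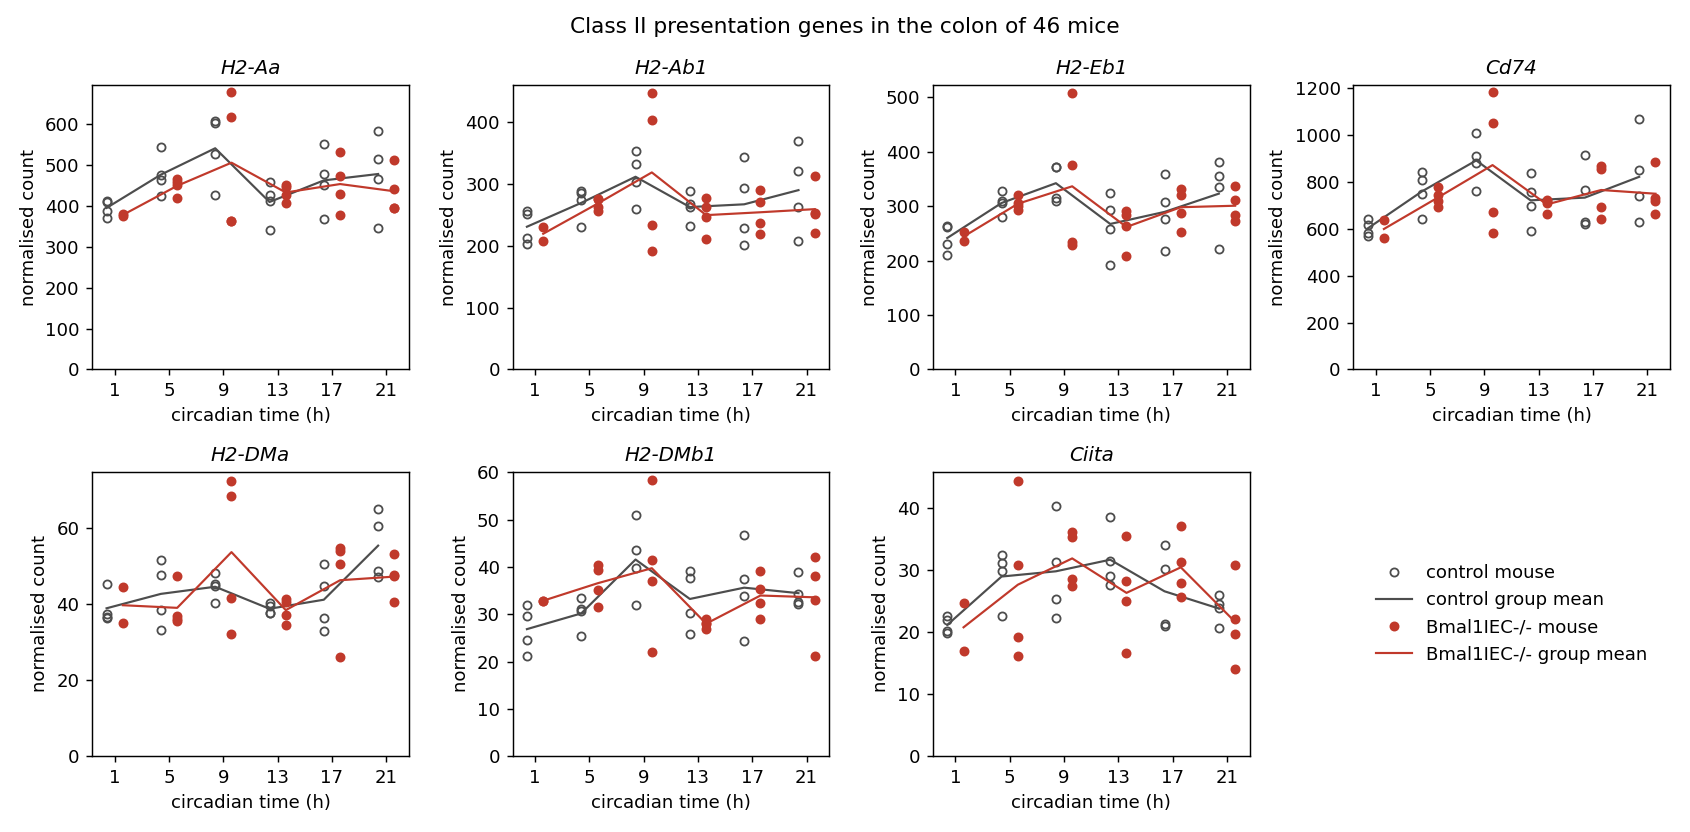
Normalised count of each member against circadian time in 46 mice, with open circles for control mice, red circles for Bmal1IEC-/- mice and lines through the group means, the 2 genotypes being drawn side by side at each time. The means of H2-Aa, H2-Ab1, H2-Eb1 and Cd74 are lowest at CT1 and highest at CT9 in both genotypes, and for these 4 genes the Bmal1IEC-/- mice at CT9 split into 2 high and 2 low mice.

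Tested for a 24-h rhythm with JTK_cycle, 1 of 7 members passed in control mice, where 40.6% of all genes passed, and none of 7 passed in Bmal1IEC-/- mice, where 15.4% of all genes passed. The rhythmic member in control mice was Ciita, with a phase of 12 h (JTK_cycle q = 0.0439). With the JTK_cycle p adjusted over phases alone, Ciita was again the 1 member called in control mice (50% of all genes) and none was called in Bmal1IEC-/- mice (29.3%). With a cosine fitted in edgeR none of 7 was called in control mice (49.8% of all genes) or in Bmal1IEC-/- mice (27.2%). The call of Ciita was narrow: its edgeR adjusted p for the cosine in control mice was 0.0891, and its JTK_cycle q ranged from 0.0253 to 0.119 when 1 mouse at a time was left out. In Bmal1IEC-/- mice Ciita had a JTK_cycle q of 0.882 with 22 mice. The difference itself was tested and was not shown: the fitted cosine of Ciita had an amplitude of 0.25 in control and 0.23 in Bmal1IEC-/- mice on the log2 scale, with a peak at 10.98 h in both, and the edgeR test for a change of rhythm gave an adjusted p of 0.999. No member passed the test for a change of rhythm (0.94% of all genes passed). With 1 cosine for both genotypes, a test added after the group means were seen, Ciita passed (amplitude 0.25, peak at 10.99 h, edgeR adjusted p = 0.0123) and the other 6 did not, beside 60% of all genes.

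A test of circadian time as a factor with genotype as covariate, also added after the means were seen, called 6 of 7 members, beside 59.8% of all genes. Cd74 had the smallest edgeR adjusted p at 0.00214 and H2-Eb1 the next at 0.00980, while H2-DMb1 did not pass (edgeR adjusted p = 0.0638). The count depended on which times entered. Leaving out CT1, where most means had been seen to be lowest, no member passed, beside 50.3% of all genes, and leaving out CT9, where most were highest, 3 of 7 passed, beside 57.7%. Leaving out CT5, CT13, CT17 or CT21 in turn, 5 or 6 of 7 passed, beside 51.1% to 57.2% of all genes. In control mice alone 1 of 7 passed (Cd74, edgeR adjusted p = 0.0194), beside 47.4% of all genes, and in Bmal1IEC-/- mice alone none of 7, beside 14.5%. Leaving out 1 mouse left 2 members called without Bmal1IEC-/- CT9 replicate SV402, and 3 without Bmal1IEC-/- CT9 replicate SV410 or without control CT1 replicate SV455. With all 48 mice, 4 of 7 members passed, beside 53.9% of all genes.

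The high and low Bmal1IEC-/- mice at CT9 also differed in markers of other cells. Replicates SV410 and SV402, the high pair, had B cell markers (10 genes) summing to 30.3 and 9.13 CPM, macrophage markers (10 genes) to 258 and 323 CPM and plasma cell markers (7 genes) to 3312 and 3365 CPM. The low pair, SV400 and SV418, had B cell sums of 10.002 and 4.83 CPM, macrophage sums of 246 and 165 CPM and plasma cell sums of 2204 and 2069 CPM. The epithelial sums (8 genes) were 8135 and 8181 CPM in the high pair and 6463 and 6323 CPM in the low pair, and the smooth muscle sums (6 genes) were 5222 and 4858 CPM against 4653 and 3346 CPM. The dendritic cell sums were 111 and 131 CPM in the high pair and 109 and 95.5 CPM in the low pair. The T cell sums were 33.6 and 24.6 CPM against 25.7 and 23.3 CPM. The macrophage, plasma cell, dendritic cell, epithelial and smooth muscle sums thus separated the pairs, the dendritic cell sums only by 111 against 109 CPM. The pairs were formed by their class II values, and with so few mice unrelated sums can also part in this way. The B cell and T cell sums did not, since SV402 lay below SV400 in both. The B cell sum of SV410 and the macrophage sum of SV402 were the highest of the 46 mice. Their part in the class II values of these mice was not tested.

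Between mice of the same group, 6 of the 7 members rose and fell together. Log2 CPM values were compared across 46 mice after removal of the mean of each of the 12 groups, for all 21 pairs of members, with permutation within groups and Benjamini-Hochberg adjustment over the 21 pairs. All 15 pairs among the 6 members other than Ciita passed (Pearson r from 0.48 to 0.90, median 0.67). The share of other gene pairs that would pass was not computed. Ltbp4, a gene outside the set, had a mean r of 0.69 with these 6 members, so such co-variation was not particular to class II genes. H2-Aa, H2-Ab1, H2-Eb1 and Cd74 were the closest, with r from 0.85 to 0.90. For H2-Ab1 and Cd74, r was 0.90 and Spearman's rho 0.81 (permutation p = 1e-05 for each, the smallest that the permutations can give, adjusted p = 3.5e-05), and r was 0.86 without the 2 mice farthest from the median. The chains of I-A, H2-Aa and H2-Ab1, gave r = 0.89 and rho = 0.86 with the same permutation p-values.

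The DM chains were tied to these 4 genes less closely. H2-DMa had r from 0.61 to 0.71 with them, and H2-DMb1 had r from 0.48 to 0.65. The DM chains gave r = 0.49 with each other (rho = 0.45, permutation p = 0.00831, adjusted p = 0.0134), and r = 0.36 without the 2 farthest mice. Counting error took a larger share of their spread. The SD between mice of a group was 0.28 on the log2 scale for H2-DMa and for H2-DMb1, beside an SD of 0.22 and 0.25 from counting alone, whereas Cd74 had an SD of 0.23 beside 0.05 from counting. Its part in the lower r was not tested.

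Ciita did not share in this. Its 6 correlations with the other members lay between -0.09 and 0.08 with adjusted permutation p-values from 0.664 to 0.911, and its SD of 0.33 stood beside 0.29 from counting alone, at a mean of 27.5 counts per mouse. A p that misses the threshold here does not show that Ciita was unrelated to the others. With all 48 mice the 6 correlations of Ciita rose to between 0.17 and 0.42, so that their size depended on the pair of mice outside the 46. Within genotypes, r over the 15 pairs without Ciita ran from 0.28 to 0.89 in 24 control mice (median 0.60). It ran from 0.52 to 0.93 in 22 Bmal1IEC-/- mice (median 0.76). The lowest r in control mice was that of H2-Aa with H2-DMb1, which was 0.64 in Bmal1IEC-/- mice. The difference between genotypes was not tested.

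**Figure D4:**
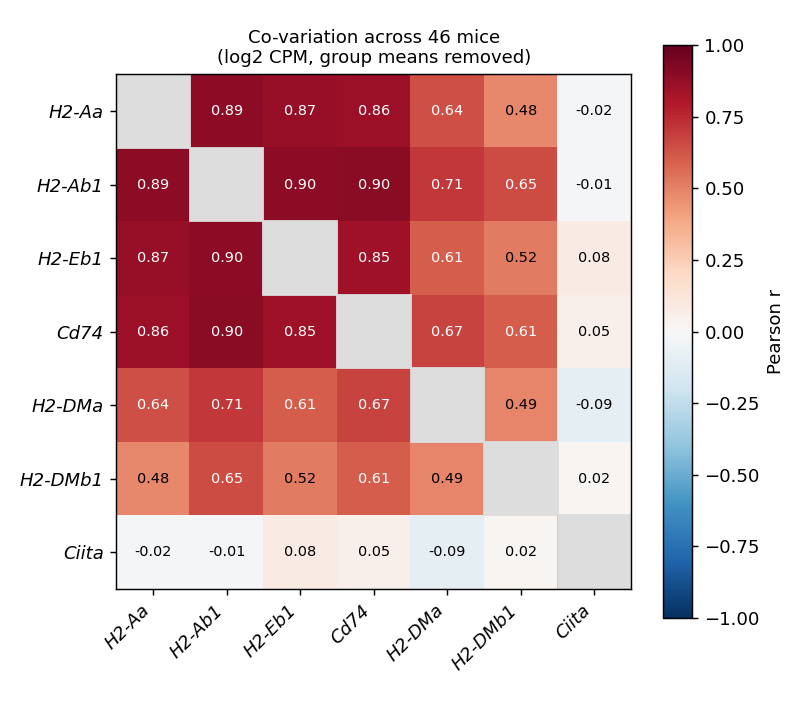
Pearson r between members across 46 mice on log2 CPM with the group means removed, coloured from -1 (blue) to 1 (red). H2-Aa, H2-Ab1, H2-Eb1 and Cd74 form a block at 0.85 to 0.90, H2-DMa and H2-DMb1 follow at 0.48 to 0.71, and the row of Ciita lies between -0.09 and 0.08.

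The pair of Bmal1IEC-/- mice at CT1 outside the 46 lay at opposite ends. Replicate SV385 had the lowest value of all 48 mice for 6 of the 7 members, with 197 normalised counts of H2-Aa, 311 of Cd74 and 5.79 of Ciita, and the second lowest value of H2-DMa. Replicate SV384 had 541 normalised counts of H2-Aa and 949 of Cd74 and ranked from 2 to 7 from the top for every member except Ciita. The same 2 mice stood apart in some cell type markers but not in others. SV385 had the highest epithelial sum of 48 mice (11615 CPM over 8 genes) and the lowest macrophage (87.6 CPM), T cell (14.4 CPM) and smooth muscle (900.4 CPM over 6 genes) sums, and SV384 the third highest macrophage sum (278 CPM). Counted from the lowest of 48 mice, SV385 ranked 24 for the dendritic cell sum, 19 for B cells and 30 for plasma cells. SV384 ranked 16, 22 and 40 for these lists, 22 for T cells, 45 for epithelium and 4 for smooth muscle.

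**Figure D5:**
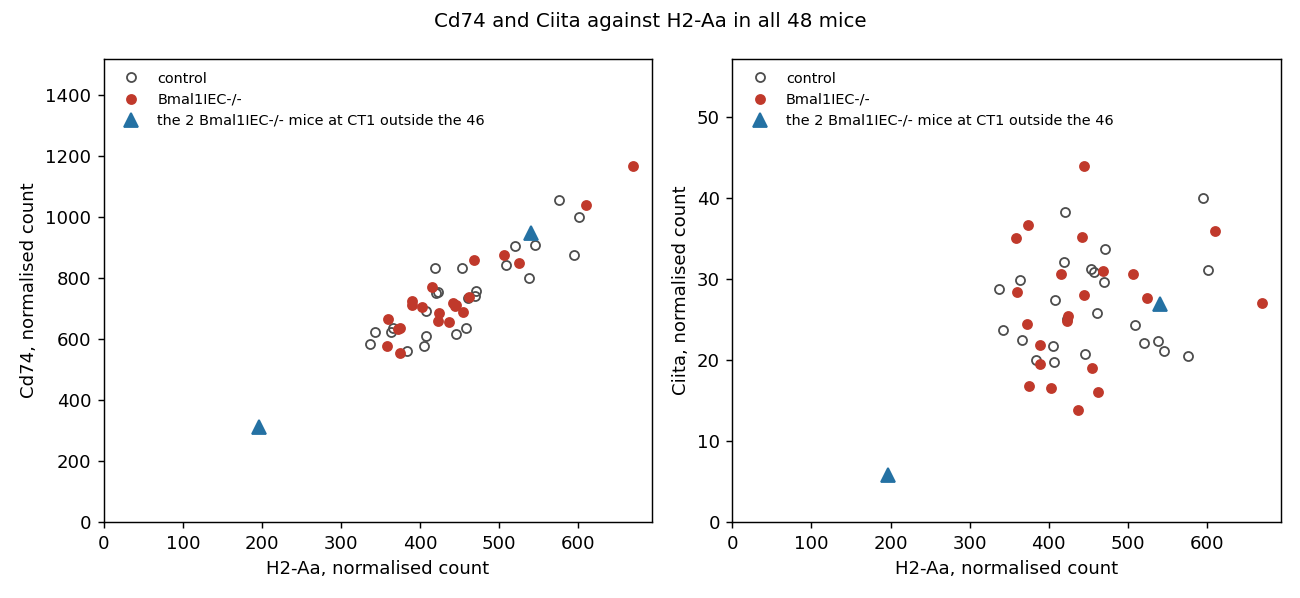
Cd74 (left) and Ciita (right) against H2-Aa in all 48 mice in normalised counts, with open circles for control mice, red circles for Bmal1IEC-/- mice and blue triangles for the pair outside the 46. Cd74 follows H2-Aa over the whole range, and the triangle at 197 normalised counts of H2-Aa is replicate SV385 with 5.79 of Ciita.

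Marker sums of some cell types were related to the members within groups. In 49 relations between 7 members and 7 marker lists, chosen after the data were seen, the macrophage sum (10 of 10 genes tested) was related to H2-Aa, H2-Ab1, H2-DMa, H2-DMb1 and Cd74 with Pearson r from 0.57 to 0.68, all 5 with an adjusted permutation p under 0.05. For H2-Ab1 and the macrophage sum r was 0.68 (rho = 0.66, permutation p = 0.0004, adjusted p = 0.00425), and r was 0.55 without the 2 farthest mice. The T cell sum was related to H2-Aa, H2-Ab1, H2-Eb1 and Cd74 with r from 0.49 to 0.57. B cell sums were small, 2.71 to 30.3 CPM over 10 genes of which 2 could be tested. They passed with H2-Aa (r = 0.52, permutation adjusted p = 0.0317) and H2-Eb1 (r = 0.50, permutation adjusted p = 0.0303), and the r with H2-Aa fell to 0.37 without the 2 farthest mice. By Spearman's rho no B cell relation passed (smallest permutation adjusted p = 0.077). The plasma cell sum passed with H2-Aa, H2-Ab1 and Cd74 (r from 0.47 to 0.56). The epithelial sum passed by Pearson r with H2-DMb1 (r = 0.45, permutation adjusted p = 0.0206) and with no other member. By Spearman's rho it also passed with Cd74 (permutation adjusted p = 0.0338), and the macrophage sum also passed with H2-Eb1 (permutation adjusted p = 0.00686). The dendritic cell sum, from a main class II cell type, passed with none of the 7 members (smallest permutation adjusted p = 0.0572), and neither did the smooth muscle sum. No relation of Ciita passed with any of the 7 lists.

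The ranges of the marker sums overlapped between genotypes, which does not show that the marker content was alike, and the sums were not tested. The median log2 fold change of the tested genes was -0.22 for T cells, -0.19 for smooth muscle, -0.11 for dendritic cells and -0.05 for macrophages. It was 0.04 for B cells, 0.11 for epithelium and 0.17 for plasma cells. B cell markers had medians of 7.62 CPM in control and 7.13 CPM in Bmal1IEC-/- mice (none of 2 tested genes called), plasma cell markers of 1965 and 2328 CPM (none of 5) and T cell markers of 26.7 and 22.3 CPM (none of 5 of 9 genes tested). Macrophage markers ranged from 200.8 to 285 CPM with a median of 235 in control mice and from 165 to 323 CPM with a median of 237 in Bmal1IEC-/- mice, and none of the 10 genes passed the genotype test. Dendritic cell markers ranged from 79.8 to 132 CPM with a median of 108 in control mice and from 81.9 to 131 CPM with a median of 106 in Bmal1IEC-/- mice, with 6 of 10 genes tested and none called. Smooth muscle markers had medians of 4676 and 4119 CPM with 2 of 6 genes lower in Bmal1IEC-/- mice (Cnn1 and Myh11), and epithelial markers had medians of 6662 and 6999 CPM with 3 of 8 genes higher and 1 lower. Over all genes tested, 5.44% were higher and 5.64% lower. With the B cell list, the macrophage and dendritic cell lists or the epithelial list as covariates, none of the 7 members was called.

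The tested genes with the highest mean within-group Pearson r with the 6 members other than Ciita were Ltbp4, Ptms, Csrp2, Ergic3, Islr, Vim, Ssc5d, Apoe, Mfge8 and Pafah1b3. Their mean r ran from 0.65 to 0.69 across 46 mice, beside a median r of 0.67 over the 15 pairs of members. Vim, which encodes the intermediate filament vimentin of mesenchymal and immune cells, was at 569 and 520 normalised counts in control and Bmal1IEC-/- mice, and Apoe, which encodes apolipoprotein E, at 492 and 478. None of these 10 genes was called by genotype. The genes most like Ciita were Msr1, Iigp1, Igkv6-13, Igtp and Mylk, with r from 0.54 to 0.60. They were picked as the highest of 14475 tested genes, and unrelated genes picked in this way can also show a high r. The r that such a choice gives for unrelated genes was not computed. The SD of Ciita, 0.33 on the log2 scale, stood beside 0.29 from counting alone. These values therefore do not show that Ciita was related to any of the listed genes. Iigp1 and Igtp encode interferon-inducible GTPases and stood on the interferon gamma target list, at 40.8 and 59.3 normalised counts in control mice and 38.4 and 56.8 in Bmal1IEC-/- mice, neither called by genotype.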

How the data were processed

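RNA of colon tissue was sequenced in 48 mice (TruSeq Stranded mRNA kit, paired reads of 150 bases). The study's methods also speak of rRNA depletion, and how the mRNA was selected is not otherwise stated. The authors deposited a table of raw counts per gene. Their processing used FastQC 0.11.5, Trimmomatic 0.39, STAR 2.7.5c on mm10, SAMtools 1.3.1 and featureCounts 1.4.6, with reads of MAPQ of at least 4. The strand setting and the annotation release are not given in the sources used here. Mice are separate animals, and no 2 libraries of a group agreed within sampling noise.

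Here, counts were tested with edgeR 4.0.16 (filterByExpr, TMM, quasi-likelihood, genotype with circadian time as factor; Benjamini-Hochberg adjustment over 14475 genes). For normalised counts, each library was scaled by its size factor from DESeq2 1.42.0. Rhythms were tested with JTK_cycle at a period of 24 h. Co-variation used log2 CPM with a prior count of 2 and 100000 permutations within groups. Intervals are 95% confidence intervals. The members and the gene lists were chosen with earlier results of these data known. Genes named from a list are at most 2 per direction with the smallest adjusted p under 0.05, or else the one with the most counts, and the genes most alike are the 10 nearest to the 6 members and the 5 nearest to Ciita. The tests of circadian time and of a common cosine, the marker relations and the promoter motif were added after the data were seen. The alternatives were all 48 mice, each mouse left out, DESeq2, DESeq2 factors, limma voom, no filter, other rhythm tests, marker lists as covariates and another gene length.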

Additional observations from a re-analysis of the deposited data

Results flagged for a closer look

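In 84 groups of 4 mice (7 members in 12 groups), 3 held a mouse far from the others by Dixon's criterion at 95%, where chance marks about 1 in 20 groups. All 3 concerned H2-DMa. In Bmal1IEC-/- mice at CT17, replicate SV481 was the lowest at 25.8 normalised counts, beside 49.9, 53.4 and 54.2 in the other mice. In Bmal1IEC-/- mice at CT5, replicate SV477 was the highest at 47.0, beside 35.3, 35.8 and 36.6. In control mice at CT1, replicate SV468 was the highest at 45.002, beside 36.0, 36.2 and 37.0. These values use the size factors of all 48 mice.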

How the results depend on the processing

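The genotype result, 0 of 7 members called over all times and at each time, held under every alternative run. Small log2 differences changed sign: H2-Eb1 to 0.000724 without the circadian time term, H2-DMa to -0.00430 and H2-DMb1 to -0.00639 with limma voom, H2-Aa to 0.0113, H2-Ab1 to 0.0257, H2-Eb1 to 0.0445 and Cd74 to 0.0372 with macrophage and dendritic cell covariates, and H2-DMa to -0.0298 and H2-DMb1 to -0.0763 with the epithelial covariate. With 1 mouse left out they ranged from -0.0244 to 0.0418 for H2-DMa, from -0.0281 to 0.0394 for H2-DMb1 and from -0.0608 to 0.00214 for H2-Eb1. Against a fold of 1.5 none of Ctss, Lgmn, Lamp1, Ifngr1, Jak2, Ido1 and H2-K1 was called, without a filter Lgmn and Lamp1 were not, and without the circadian time term Lgmn was not (edgeR adjusted p = 0.180).

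Rhythm in control mice went from 1 member to 0 without a filter, with TMM CPM and with the edgeR cosine, and ranged from 0 to 1 with 1 mouse left out. Circadian time went from 6 members to 1 in control mice alone, 0 in Bmal1IEC-/- mice alone, 0 without CT1 and 3 without CT9, and from 2 to 6 with 1 mouse left out. Levels per length kept 4 of 7 ranks with the longest transcript. The cause was not tested.

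Over all genes, the 1605 genotype calls became 819 without the time term and 51 against a fold of 1.5. Calls of the day-night interaction went from 10 to 18 with 48 mice and 20 with DESeq2, of a change of rhythm from 136 to 278 and 205, and of rhythm in Bmal1IEC-/- mice from 2231 to 1396 without a filter, 4235 with p adjusted over phases alone and 3934 with the cosine. Circadian time in Bmal1IEC-/- mice alone gave 2117 calls in place of 8660. No paired analysis was possible because each replicate name belongs to 1 mouse and none is shared between groups. Depth limits Ciita, H2-DMb1 and H2-DMa most, with 15 to 82 counts per mouse.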
